A study of Mus musculus with 32 samples.

Results

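The genes described here are the 6 cofactors of the m6A methyltransferase complex: Wtap, Virma, Rbm15, Rbm15b, Cbll1 and Zc3h13. They were chosen by name. Their members in the data are the peaks of 16 lists of m6A enrichment whose summit, the base of highest signal, lay in the mm10 body of one of these genes. These were 569 of 496760 peaks in the genome, in 6 of 17094 genes that held a summit in at least 1 list. All 6 genes held a summit in every one of the 16 lists. No member summit lay in a second gene as well.

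N6-methyladenosine (m6A) is written on RNA by the METTL3 and METTL14 heterodimer, which carries the catalytic site. WTAP anchors that dimer in nuclear speckles, VIRMA is the large scaffold of the associated complex, RBM15 and RBM15B bind RNA and bring the complex to it, CBLL1 (also called HAKAI) is a RING-type E3 ubiquitin ligase, and ZC3H13 bridges WTAP to the RNA-binding adaptors and holds the complex in the nucleus. The mRNAs of these proteins can themselves carry m6A, and mouse embryonic stem cells are a standard setting in which the mark was studied for its part in leaving pluripotency.

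The study asked how m6A changed in mouse embryonic stem cells when Mettl3 or Mettl14 was knocked out. RNA was fragmented, immunoprecipitated with an antibody against m6A and sequenced (MeRIP-seq) from 2 RNA types: polyadenylated RNA (mRNA) and chromatin-associated RNA freed of ribosomal RNA (caRNA). Each RNA type was taken from 4 kinds of cells: Mettl3 conditional knockout (CKO) cells, their controls, Mettl14 CKO cells and their controls, which gave 8 groups of 2 libraries. Of the 32 samples, the 16 immunoprecipitated ones had a peak list, and the 16 inputs were not used here. All cells were of the C57BL/6 strain and grew with LIF (1000 U/ml), CHIR99021 (3 µM), an inhibitor of GSK3, and PD0325901 (1 µM), an inhibitor of MEK. The labels do not say how the deletion was induced or how many clones each line comprises. Nor do they say whether libraries of a group came from separate cultures, so every p-value below measures library-to-library spread, part or all of which may be technical.

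The lists held 16537 to 23380 genome peaks in mRNA and 37955 to 45241 in caRNA, and 25 to 43 member summits each. The depth behind the lists is unknown. A peak that is missing from a list can reflect less methylation, less RNA or fewer reads, which the lists do not separate, and in bulk cells fewer cells of a type and less RNA per cell cannot be told apart. Peaks give no RNA level, so they do not check the deletions. The Mettl3 gene held 3 and 2 summits in the caRNA Mettl3 controls and 1 in each caRNA Mettl3 knockout, and in mRNA of that line 1 summit in a single knockout list. In caRNA of the Mettl14 line it also held fewer in knockouts, 1 and 2 against 4 and 4. The Mettl14 gene held 1 summit in each caRNA Mettl14 control and 0 in both knockouts, and in mRNA of that line 1 and 2 in the controls against 1 and 0. In caRNA Mettl3 it held 2 and 1 in the knockouts and 0 in both controls. Embryonic stem cell markers held summits in 9 to 12 of 12 genes per list, and the groups stood apart in mRNA Mettl3 alone, with 11 genes in each control and 9 in each knockout. Markers of feeder fibroblasts held summits in 2 to 8 of 10 genes, and their number moved with genotype in 3 comparisons: 2 and 3 genes in the caRNA Mettl3 controls against 7 and 8 in the knockouts, 2 and 2 in the mRNA Mettl14 controls against 5 and 5, and 4 and 4 in the caRNA Mettl14 controls against 5 and 5. The part of either marker list in the genotype results below was not tested.

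The number of summits differed widely among the 6 genes. Over the 16 lists, Zc3h13 held 219 summits, Rbm15 106, Virma 97, Wtap 62, Rbm15b 49 and Cbll1 36. Per list that was a mean of 13.7 ± 2.12 (SD, n = 16) for Zc3h13, 6.62 ± 1.93 for Rbm15, 6.06 ± 1.48 for Virma, 3.88 ± 0.957 for Wtap, 3.06 ± 0.854 for Rbm15b and 2.25 ± 0.931 for Cbll1. The neighbours Rbm15 and Virma, Wtap and Rbm15b, and Rbm15b and Cbll1 lay closer than their spread over lists, while Zc3h13 stood apart with 10 to 17 summits in every list. Among 11988 protein-coding genes with a summit in at least 4 lists, whose median was 1.69 summits per list, Zc3h13 lay at the 99.5th percentile and Cbll1 at the 63.6th. Gene length orders the genes differently: per kilobase of gene body, Rbm15b held 0.498 summits per list, Rbm15 0.229, Zc3h13 0.228, Wtap 0.151, Cbll1 0.142 and Virma 0.093.

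**Figure D1:**
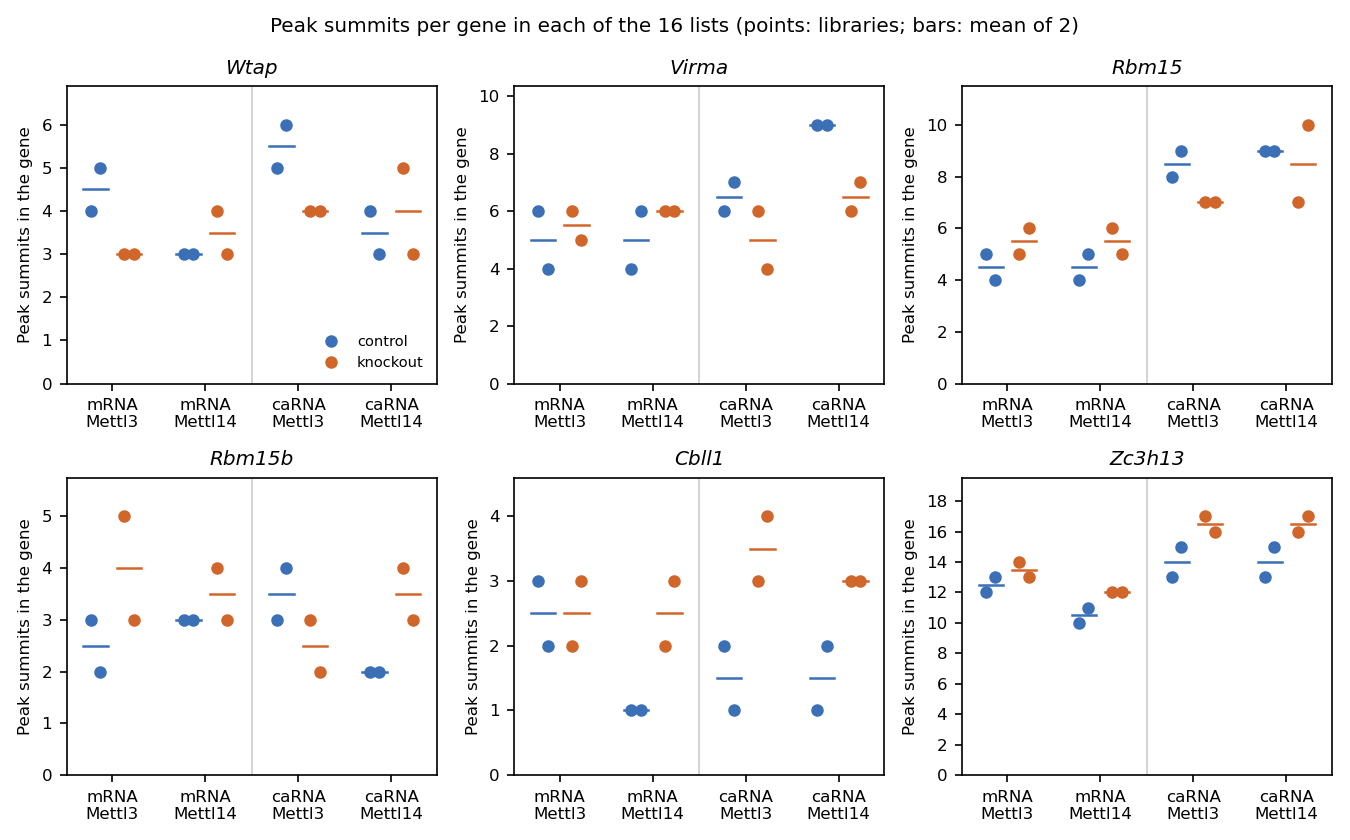
Number of peak summits in each of the 6 genes (vertical axis, from 0) in mRNA and caRNA of the Mettl3 and Mettl14 lines; each point is 1 library, blue for control and orange for knockout, and each short bar is the mean of 2. Zc3h13 ranges from 10 to 17 summits and Cbll1 from 1 to 4.

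Peaks that overlapped on the same strand were merged over the 16 lists into 65 regions, of which 47 lay on the strand of the gene and 18 on the opposite strand. A core of 15 regions held a peak in all 16 lists: 7 in Zc3h13, 2 each in Wtap, Rbm15 and Rbm15b, and 1 each in Virma and Cbll1. Another 6 regions occurred in 1 list only. Carrying peaks throughout was common in single genes. Of the 11988 protein-coding genes with a summit in at least 4 lists, 46.4% also held one in all 16. Whether 6 of 6 differs from that share was not tested.

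**Figure D2:**
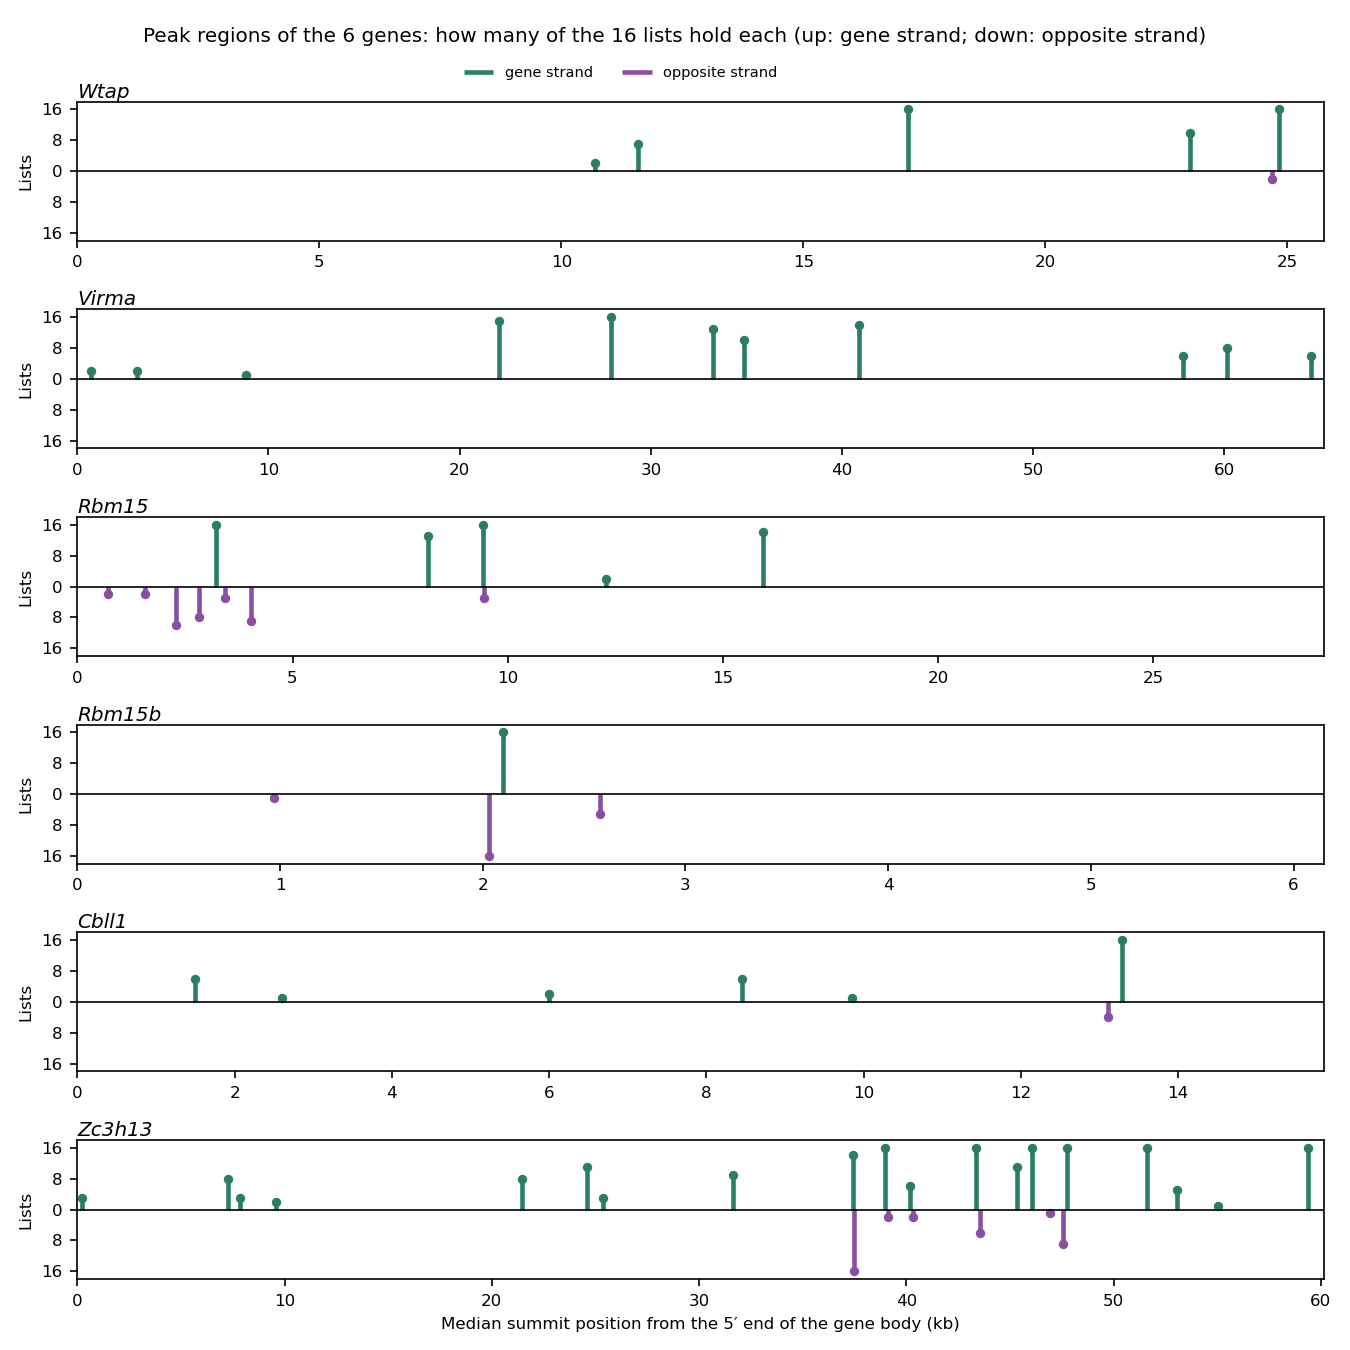
Map of the 65 merged regions along each gene body (horizontal axis, kilobases from the 5′ end, drawn to each gene's own scale); the height of a stick is the number of lists, of 16, with a peak there, upward in green on the gene's strand and downward in purple on the opposite strand. The core regions of Zc3h13 crowd into the 3′ part of the gene, and Rbm15 and Rbm15b have no region in the last 10% of their length.

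The position of summits along the gene varied among members. Of 464 member summits on the gene's strand, 47 (10.1%) fell in the last 10% of the gene's length, against 24.9% for the protein-coding genes, and 22 (4.74%) in the first 10%, against 13.1%. No test was made of these shares, since peaks of 1 region recur across lists. The last 10% held 26.7% of the summits of Wtap, 14.4% of Virma and 9.29% of Zc3h13, and 0 in Rbm15, Rbm15b and Cbll1. The first 10% held 18.8% of the summits of Cbll1, 10.1% of Rbm15, 8.7% of Rbm15b, 4.12% of Virma, 1.64% of Zc3h13 and 0 of Wtap. Neither pooled share is thus shared by all 6 genes.

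Within a comparison, the 2 knockout lists lay wholly above or below the 2 control lists in only some members. In mRNA Mettl3, Wtap was lower in both knockouts (as were 7.73% of 14247 genes with a summit in at least 4 lists) and 0 members were higher (9.8% of genes). In mRNA Mettl14, Cbll1 and Zc3h13 were higher (21.5%) and 0 lower (4.13%). In caRNA Mettl3, Cbll1 and Zc3h13 were again higher (17.9%), and Wtap and Rbm15 lower (14.1%). In caRNA Mettl14, Rbm15b, Cbll1 and Zc3h13 were higher (10.2%) and Virma lower (14.5%). Zc3h13 and Cbll1 stood above their controls in the same 3 comparisons. With 2 libraries against 2 an exact test cannot go below p = 0.333, so these are descriptions.

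Wtap (gene 60532, chr17:12966799-12992543, minus strand), the regulatory subunit that brings the catalytic dimer to nuclear speckles, held 6 regions. In mRNA of the Mettl3 line its control lists had 4 and 5 summits and its knockout lists 3 and 3. In caRNA of that line the counts were 5 and 6 against 4 and 4. In the Mettl14 line they were 3 and 3 against 4 and 3 in mRNA, and 4 and 3 against 5 and 3 in caRNA. The Mettl3-line groups did not overlap and the Mettl14-line groups did. Both regions present in all 16 lists lay toward the 3′ end. The one at chr17:12974546-12975571 had its median summit 17163 bases from the gene's start, with fold enrichments between 1.57 and 12.8. Its upper folds belonged to a different summit. When lists were merged within mRNA Mettl3 alone, peaks here fell into separate regions. Folds ran from 9.03 to 12.8 at 17751 bases from the start, but only from 1.36 to 2 at 17161 bases. The one at chr17:12967481-12968110 lay 920 bases before the gene's end, with folds between 1.93 and 14.1. Fold enrichment is the value the authors' lists give for a peak, over a background not given in the sources used here. Where a list held several peaks in a region, the highest is given, and folds of different lists stand only side by side.

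Another Wtap region, chr17:12969486-12969662, whose summit lay 2757 bases before the gene's end, followed genotype in 3 of the 4 comparisons. It held a peak in 8 of 8 control lists and in 2 of 8 knockout lists. Its folds were 3.84 and 4.2 in the mRNA Mettl3 controls, 2.96 and 3.46 in the caRNA Mettl3 controls and 3.32 and 3.08 in the caRNA Mettl14 controls, and no knockout list of these 3 comparisons held it. In mRNA of the Mettl14 line the controls had folds of 4.54 and 3.32 and the knockouts 4.33 and 4.68, so there the peak stayed. Of 9083 regions of the genome present in all 8 control lists, 20 (0.22%) were absent from both knockouts in 3 or more of the 4 comparisons. An exact two-sided permutation test of presence, with genotype labels permuted within RNA type and line, gave p = 0.00926 for this region and a Benjamini-Hochberg adjusted p of 1 over 43669 regions. That test called 0 regions higher (0%) and 0 lower (0%) in knockouts genome-wide, with 294 at an unadjusted p of 0.05 or less.

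Peaks on the Wtap strand also lay just outside the annotated gene. In the 1000 bases before the gene's start, where the gene table lists no other gene, 11 of 16 lists had a summit on the Wtap strand: 7 of 8 caRNA lists and 4 of 8 mRNA lists, all 4 of the latter from the Mettl14 line. These peaks are not counted as Wtap summits. The 250 bases before the start are shown because peaks on the Wtap strand reached into them in 10 lists. Their folds ran from 2.35 in a caRNA Mettl3 knockout to 9.23 in an mRNA Mettl14 control. Peaks on the opposite strand also reached these bases, in 6 lists. This RefSeq sequence (GRCm38.p6, chr17:12992544-12992793, minus strand) is written 5′ to 3′, with capitals for GTCC, the reverse complement of GGAC, a common core of the m6A consensus.
Wtap, 250 bases before the start: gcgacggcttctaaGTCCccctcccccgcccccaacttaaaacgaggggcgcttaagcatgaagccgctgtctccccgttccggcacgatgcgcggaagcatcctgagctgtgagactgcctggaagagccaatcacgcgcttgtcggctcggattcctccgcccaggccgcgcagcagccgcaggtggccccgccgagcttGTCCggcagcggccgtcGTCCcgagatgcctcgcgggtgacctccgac
It holds GGAC 0 times on the strand of the gene and 3 times on the other strand. Over 32851 such windows of all genes, GGAC was found on the gene's strand in 58%, on the other strand in 59.5% and on either in 82.3%.

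Virma (gene 66185, chr4:11485958-11551143), the scaffold of the complex, held 11 regions, all on the plus strand. The strand of this gene was taken as the one that carried its peaks. In mRNA it held 6 and 4 summits in the Mettl3 controls, 6 and 5 in the Mettl3 knockouts, 4 and 6 in the Mettl14 controls and 6 and 6 in the Mettl14 knockouts. In caRNA the counts were 6 and 7 against 6 and 4 in the Mettl3 line, and 9 and 9 against 6 and 7 in the Mettl14 line. The caRNA Mettl14 controls were the highest lists, and only in that comparison did the groups not overlap. One region, chr4:11512885-11514120 near the middle of the gene, was in all 16 lists with folds from 3.67 to 8.58. The region of highest fold on average over the lists that held it was chr4:11518796-11519408, in 13 lists with folds from 3.1 to 13.6.

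By count, Virma was the gene whose caRNA regions most often dropped out in knockouts, and the regions differed between the lines. Of its regions present in both controls, 3 of 6 were in neither knockout in caRNA Mettl3 (50%, against 15.7% of all regions of genes). In caRNA Mettl14 it was 3 of 9 (33.3%, against 14.6%), and the Wtap share there was the same, 1 of 3. In the Mettl3 line 3 regions held peaks in both controls and neither knockout: chr4:11518892-11519407 with folds of 9.05 and 11.5, chr4:11526617-11527277 with 5.73 and 3.66, and chr4:11545951-11546224 with 3.24 and 2.41. The first 2 were present in all 4 caRNA lists of the Mettl14 line. In the Mettl14 line the 3 that dropped out were chr4:11486532-11486832 with folds of 6.26 and 6.82, chr4:11488968-11489300 with 5.13 and 6.46, and chr4:11550370-11550556 with 3.97 and 3.32. The first 2 of these, within 3112 bases of the gene's start by their median summits, occurred in no other list. With lists cut to their 10000 strongest peaks, 5 regions of the 6 genes dropped out in caRNA Mettl3 and 0 in caRNA Mettl14. In caRNA Mettl14 a Virma region at chr4:11543691-11544080 held peaks only in the knockouts, with folds of 3.14 and 2.77. It was present in all 4 caRNA lists of the Mettl3 line. In mRNA of the Mettl3 line, chr4:11520738-11520899 was present in both knockouts and neither control, with folds of 6.26 and 6.17.

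Rbm15 (gene 229700, chr3:107305511-107334460, minus strand), an RNA-binding adaptor of the complex, held 12 regions, 5 on its own strand and 7 on the opposite one. Its own strand carried 2 regions found in all 16 lists. One spanned chr3:107330084-107333949 near the 5′ end, where single peaks reached 3843 bases in length, with folds between 3.07 and 9.82. The other was chr3:107324716-107325499, with folds between 3.11 and 13.2. On this strand the region of highest fold on average was chr3:107318313-107318661, with a mean of 8.18. It was in 14 lists with folds up to 17.3 in an mRNA Mettl3 knockout, and absent from both mRNA Mettl14 controls.

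Rbm15 was 1 of 2 members that passed the test between RNA types, and its excess in caRNA lay on the opposite strand. Summits numbered 5, 4, 5 and 6 in the mRNA Mettl3 lists (controls first) and 4, 5, 6 and 5 in the mRNA Mettl14 lists. In caRNA they were 8, 9, 7 and 7 in the Mettl3 line and 9, 9, 7 and 10 in the Mettl14 line. Every caRNA list was above every mRNA list, at means of 8.25 ± 1.16 and 5 ± 0.756 (SD, n = 8 each). The exact two-sided permutation test, with RNA type labels permuted within line and genotype, gave p = 0.00154, the smallest its 1296 arrangements allow, and a Benjamini-Hochberg adjusted p of 0.00824 over 14247 genes. In that test 38.1% of genes were called higher in caRNA and 2.72% lower, so a member called higher is in common company. The caRNA lists were also longer. Per 10000 peaks of a list, the Rbm15 difference was -0.322 summits (exact permutation, adjusted p = 0.111).

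On the gene's own strand Rbm15 held 4 summits in each of the 8 caRNA lists and 4 to 6 in the mRNA lists, a difference of -0.625 that did not pass (exact permutation, adjusted p = 0.134). On the opposite strand it held 3 to 6 summits in each caRNA list and 0 to 2 in mRNA, where 6 of 8 lists had 0. Counted alone, opposite-strand summits were higher in caRNA by 3.88 per list (exact permutation p = 0.00154, adjusted p = 0.018 over 3652 genes, of which 21.3% passed in either direction). Among these, 2 regions passed the presence test between RNA types, which called 11.5% of 43669 regions higher in caRNA and 0.513% lower: chr3:107331203-107331717 was in 8 caRNA and 0 mRNA lists (exact permutation, adjusted p = 0.0252) and chr3:107330299-107330522 in 8 and 1 (adjusted p = 0.0386). A further one, chr3:107332015-107332647, was in all 8 caRNA lists and in both mRNA Mettl14 knockouts, with folds up to 12.1 and a mean of 8.23, the highest of the 12 regions (exact permutation, adjusted p = 0.0516). All 37 opposite-strand peaks of Rbm15 overlapped a peak on its own strand in the same list.

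**Figure D3:**
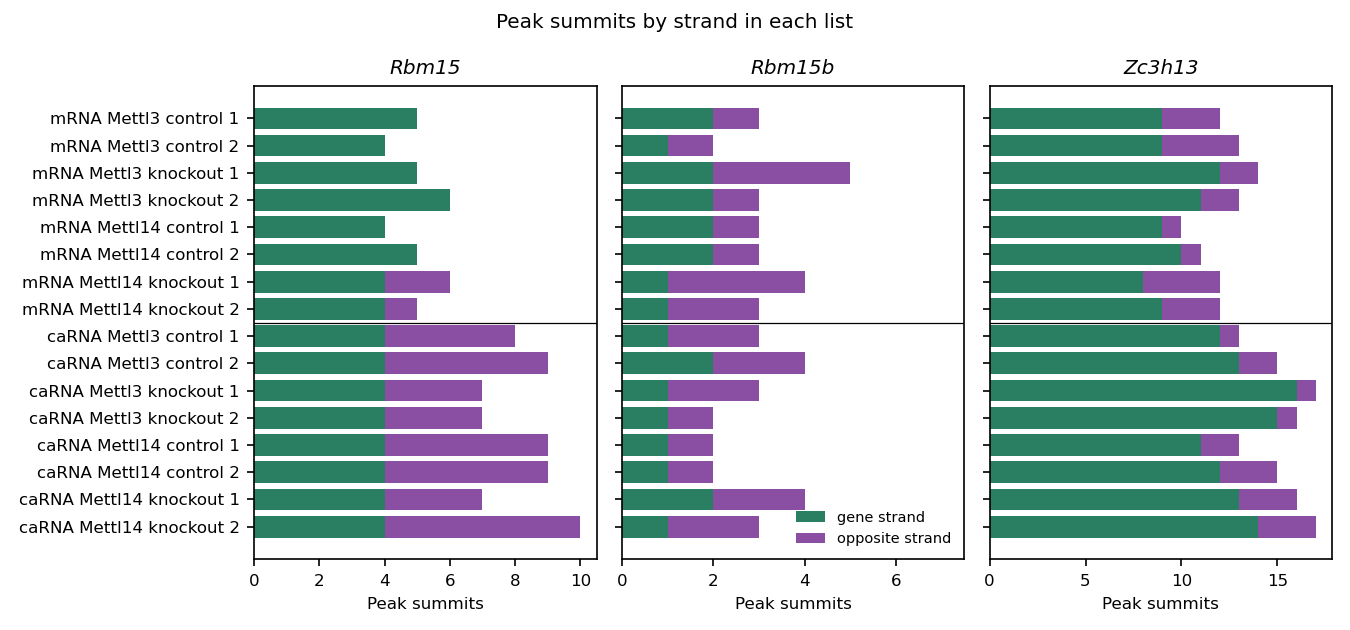
Peak summits on the gene's own strand (green) and on the opposite strand (purple) in each of the 16 lists for Rbm15, Rbm15b and Zc3h13; bars start at 0 and a line separates mRNA (above) from caRNA. Rbm15 has 4 own-strand summits in each caRNA list and 3 to 6 opposite-strand ones, while Rbm15b carries both strands in every list.

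Opposite-strand peaks were not special to Rbm15. They made up 105 of 569 member summits (18.5%), and by list 6.9% to 32.4%, against 7.43% to 12.8% of the summits in all protein-coding genes. Of the 105, 99 overlapped a peak on the gene's own strand in the same list. The library kit keeps strand, and what RNA these peaks come from was not tested.

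Rbm15b (gene 109095, chr9:106880928-106887075, minus strand), the paralogue of Rbm15 with the same role, held both strands in every list. Its own strand had 1 region, chr9:106884139-106887958, in all 16 lists with folds from 3.07 to 11. Opposite to it, chr9:106884848-106885555 was also in all 16 lists, with folds from 2.83 to 8.87. The own-strand region ran past the gene's start, where a peak of 3810 bases in 1 list joined peaks inside and before the gene. In 1 caRNA Mettl14 control its fold of 9.09 was of a peak before the start, and the best inside the gene was 7.32. Merged within caRNA Mettl3 alone, a separate own-strand region appeared at chr9:106886826-106887000, in 1 control with a fold of 2.41. Opposite-strand summits were 26 of 49 (53.1%), the highest share among the 6 genes. Summits numbered 3 and 2 in the mRNA Mettl3 controls, 5 and 3 in the knockouts, 3 and 3 against 4 and 3 in mRNA Mettl14. In caRNA they were 3 and 4 against 3 and 2, and 2 and 2 against 4 and 3. Only the last 2 groups did not overlap. A smaller opposite-strand region at chr9:106884380-106884763 was in both controls and neither knockout of caRNA Mettl3 (folds of 6.02 and 4.02), and in both knockouts and neither control of mRNA Mettl14 (4.17 and 5.37).

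Peaks on the Rbm15b strand continued past its annotated start in caRNA. In the 1000 bases before the start, where no other gene is listed, 5 of 8 caRNA lists and 0 of 8 mRNA lists had a summit on that strand. The 250 bases next to the start are shown because a peak reached them in all 4 caRNA Mettl14 lists and in none of the other 12. Peaks with a summit before the start had folds of 9.09 in 1 control and 5.77 and 5.65 in the knockouts. In the other control, 1 peak of 3810 bases reached them from a summit inside the gene. Its fold of 8.23 is that of the whole peak. The sequence is from RefSeq (GRCm38.p6, chr9:106887076-106887325, minus strand), 5′ to 3′.
Rbm15b, 250 bases before the start: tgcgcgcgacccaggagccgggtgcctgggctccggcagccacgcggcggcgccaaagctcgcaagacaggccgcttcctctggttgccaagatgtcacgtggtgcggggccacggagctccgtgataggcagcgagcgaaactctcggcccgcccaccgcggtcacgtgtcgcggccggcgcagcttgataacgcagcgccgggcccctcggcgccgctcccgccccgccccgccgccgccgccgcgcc
It holds GGAC on neither strand, so no letter is a capital.

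Cbll1 (gene 104836, chr12:31484829-31500676, minus strand), the E3 ligase of the complex, carried 1 constant and highly enriched region. This region, chr12:31487136-31488306, lay 2563 bases before the gene's end and was in all 16 lists. Its folds were 8.05 and 9.03 in the mRNA Mettl3 controls and 4.74 and 9.04 in the knockouts, then 7.56 and 5.19 against 9.03 and 11.6 in mRNA Mettl14. In caRNA they were 14.1 and 13.2 against 7.87 and 6.77 in the Mettl3 line and 17.3 and 15.1 against 17.9 and 14.4 in the Mettl14 line. The caRNA folds of the Mettl3 line were the pair of groups that stood farthest apart, but folds of separate lists were not tested. Within its own list the gene's best peak lay between the 63.2nd and the 98.3rd percentile of all peaks by fold.

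The other Cbll1 regions were sparse and leaned toward knockouts. Summits numbered 3 and 2 in the mRNA Mettl3 controls against 2 and 3 in the knockouts, 1 and 1 against 2 and 3 in mRNA Mettl14, 2 and 1 against 3 and 4 in caRNA Mettl3, and 1 and 2 against 3 and 3 in caRNA Mettl14. The groups overlapped in mRNA Mettl3 alone. A region at chr12:31492149-31492324 was in 1 control and 5 knockout lists (exact permutation p = 0.125, adjusted p = 1). The opposite-strand region at chr12:31487418-31487671 occurred in mRNA alone, in both Mettl3 controls and both Mettl14 knockouts.

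Zc3h13 (gene 67302, chr14:75284306-75344433, plus strand), the bridge between WTAP and the adaptors, carried a chain of 25 regions, 19 on its own strand. The 6 own-strand regions found in all 16 lists were chr14:75323088-75323838, chr14:75327445-75328126, chr14:75329947-75331195, chr14:75331605-75332222, chr14:75335779-75336047 and chr14:75343459-75344301, at 64.8% to 98.7% of the gene's length from its start. The seventh constant region, chr14:75321638-75322003, lay on the opposite strand at 62.4% with folds from 3.86 to 16.8. The strongest was chr14:75335779-75336047, with folds of 12, 6.81, 5.83 and 8.16 in mRNA of the Mettl3 line (controls first), 6.88, 5.87, 7.37 and 7.26 in mRNA of the Mettl14 line, 10.2, 10.6, 8.71 and 9.15 in caRNA of the Mettl3 line and 19.7, 15.2, 11.7 and 12.8 in caRNA of the Mettl14 line. Its highest folds were those of the caRNA Mettl14 controls.

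Zc3h13 passed the test between RNA types as well. Its summits numbered 12, 13, 14 and 13 in mRNA of the Mettl3 line and 10, 11, 12 and 12 in mRNA of the Mettl14 line, and 13, 15, 17 and 16 in caRNA of the Mettl3 line and 13, 15, 16 and 17 in caRNA of the Mettl14 line (controls first). The means were 12.1 ± 1.25 in mRNA and 15.2 ± 1.58 in caRNA (SD, n = 8 each), with an exact permutation p of 0.00309 and an adjusted p of 0.0142 over 14247 genes. Unlike in Rbm15, the difference was on the gene's own strand, 3.62 summits (exact permutation, adjusted p = 0.00809). It turned to -1.96 per 10000 peaks of a list (exact permutation, adjusted p = 0.00698), and with the 10000 strongest peaks of each list it was 0.25 (adjusted p = 1). One region inside the gene, chr14:75315768-75316018, was in 8 caRNA lists and 1 mRNA list (exact permutation, adjusted p = 0.0386).

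Several Zc3h13 regions in the 5′ part of the gene favoured knockout lists. The regions at chr14:75291428-75291601 and chr14:75305652-75305823 were each in 2 control and 6 knockout lists. Both were found in the knockouts alone in mRNA Mettl3 (folds of 3.53 and 2.66, and of 2.96 and 3.12) and in caRNA Mettl14 (3.63 and 2.46, and 3.69 and 3.28), and in all 4 lists of caRNA Mettl3. No mRNA Mettl14 list held them. The exact permutation p was 0.0556 for each, with an adjusted p of 1. Next to the gene's start, chr14:75284446-75284608 held peaks in both caRNA Mettl3 knockouts and neither control, with folds of 5.97 and 6, and in 1 mRNA Mettl3 knockout with 11.2. The region at chr14:75293770-75293921 was in both caRNA Mettl3 knockouts and no other list, with 2.36 and 2.46. In the other direction, chr14:75309513-75309674 was in both mRNA Mettl14 controls and neither knockout, with folds of 5.29 and 4.85. A peak there also occurred in 1 caRNA Mettl3 knockout, with a fold of 6.31, and in neither control of that comparison.

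The number of summits was compared between genotypes over all 16 lists. Zc3h13 held 12.8 ± 1.75 in controls and 14.6 ± 2.13 in knockouts (SD, n = 8 each), and the knockout mean was above the control mean in 4 of 4 comparisons. Cbll1 held 1.62 ± 0.744 and 2.88 ± 0.641. The exact two-sided permutation test gave p = 0.00309 and 0.0154, and neither passed after Benjamini-Hochberg adjustment over 14247 genes (adjusted p = 0.52 for both). Per 10000 peaks of a list the differences were 0.139 in Zc3h13 (exact permutation p = 0.543, adjusted p = 0.774) and 0.33 in Cbll1 (p = 0.0231, adjusted p = 0.236). On that scale Zc3h13 was lower in the mRNA Mettl14 knockouts, at 5.13 and 5.3 against 6.05 and 6.2. With lists cut to their 10000 strongest peaks the Cbll1 difference was -0.25. The raw counts of both genes stood above their controls without overlap in the 3 comparisons in which more feeder fibroblast markers held summits. So did 21.5% of 14247 genes in mRNA Mettl14, 17.9% in caRNA Mettl3 and 10.2% in caRNA Mettl14. Whether the markers and these counts are linked was not tested. Differences in the other members were smaller: 0 summits in Rbm15, -0.5 in Wtap, -0.625 in Virma and 0.625 in Rbm15b, with exact permutation adjusted p between 0.847 and 1. The test called 0 genes higher (0%) and 0 lower (0%) in knockouts, with 942 genes (6.61%) at an unadjusted p of 0.05 or less. The median difference over the 6 genes was 0.312 summits, against 0.125 over all genes.

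Wtap, Virma, Rbm15b and Cbll1 did not pass between RNA types, with differences of 0.75, 1.38, -0.375 and 0.25 summits (exact permutation, adjusted p from 0.133 to 0.832). Other settings turned some of these into calls. Virma passed as higher with peaks of -log10 q of at least 5 (2.12 summits, exact permutation, adjusted p = 0.0341). At that setting 5395 of 14169 genes were called higher and 382 lower. Wtap passed as lower with the 10000 strongest peaks of each list (-1.25, exact permutation, adjusted p = 0.0408). At that cut 584 of 8511 genes were called lower and 381 higher. Per 10000 peaks all 4 passed as lower, by -0.597, -0.881, -0.824 and -0.386 in the same order (exact permutation, adjusted p from 0.00698 to 0.0188). On that scale 3678 of 14247 genes were called lower and 2733 higher, so these calls were common. Between the 2 lines no member passed either, and the test called 0 genes higher (0%) and 0 lower (0%) in the Mettl14 line, with 3287 genes (23.1%) at an unadjusted p of 0.05 or less. The member differences there ran from -0.875 in Zc3h13 to 1.12 in Virma (exact permutation, adjusted p from 0.24 to 1).

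Within each comparison a gene with a summit in the 2 control lists but in no knockout list was called lost, the reverse was called gained, and a summit in all 4 lists was called retained. These calls carry no test. All 6 members were retained in each of the 4 comparisons, and 0 were lost or gained. Among all genes with a summit in both controls, 90.5% were retained and 4.27% lost in mRNA Mettl3, 96.7% and 1.84% in mRNA Mettl14, 88.3% and 6.13% in caRNA Mettl3, and 87.9% and 5.72% in caRNA Mettl14. Of genes with a summit in both knockouts, 5.08%, 13.7%, 5% and 3.27% were gained in the same order. With lists cut to their 10000 strongest peaks, Wtap and Cbll1 were lost in caRNA Mettl3. The shares above are for full lists, and none is given for all genes at this cut.

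The same rule applied to regions, merged within each comparison, is read beside the share of all regions of genes called in the same way. In mRNA Mettl3, 4 of 28 member regions present in both controls were lost (14.3%, against 9.67% of all) and 3 of 26 present in both knockouts were gained (11.5%, against 9.91%). The lost ones were the Wtap region described above, the Rbm15 region chr3:107325910-107326437 with folds of 3.99 and 3.04, and 2 opposite-strand regions of Cbll1 and Zc3h13. Without knockout replicate 2, the gained regions numbered 6. Leaving out a library loosens the rule, here and in the comparisons below, which by itself keeps or raises such counts. No share of all regions is given for the looser rule.

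In mRNA Mettl14, 1 of 22 was lost (4.55%, against 6.53%) and 7 of 28 were gained (25%, against 23.9%). Gained were 2 regions of Rbm15, 1 of Rbm15b, 1 of Cbll1 and 3 of Zc3h13, and 5 of the 7 lay on the opposite strand. The knockout lists of this comparison were longer than the control lists, 23380 and 22654 peaks against 16537 and 17738. The 2 gained regions on the gene's own strand were chr3:107318427-107318623 in Rbm15, with folds of 4.32 and 7.06, and chr14:75329542-75329695 in Zc3h13, with 3.8 and 4.28. Without knockout replicate 2 the gained regions numbered 12 and the lost 3. The lost were 2 without control replicate 1 or knockout replicate 1.

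In caRNA Mettl3, 6 of 34 were lost (17.6%, against 15.7%) and 2 of 33 were gained (6.06%, against 16.2%). The lost were 3 regions of Virma, 1 of Wtap and 1 opposite-strand region each of Rbm15 (chr3:107330784-107331144, folds of 3.28 and 2.98) and Rbm15b, and both gained regions were in Zc3h13. Without control replicate 1, 11 regions were lost and 4 gained. The gained numbered 4 without knockout replicate 1 and 6 without knockout replicate 2.

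In caRNA Mettl14, 4 of 36 were lost (11.1%, against 14.6%) and 4 of 34 were gained (11.8%, against 9.1%). Virma supplied 3 of the lost regions and Wtap the other one, while 3 of the gained were in Zc3h13, among them chr14:75323334-75323581 on the opposite strand with folds of 2.62 and 3.37. Without knockout replicate 2, 7 regions were lost and 7 gained. Across the 4 comparisons 22, 18, 28 and 29 member regions were retained, in the order above.

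**Figure D4:**
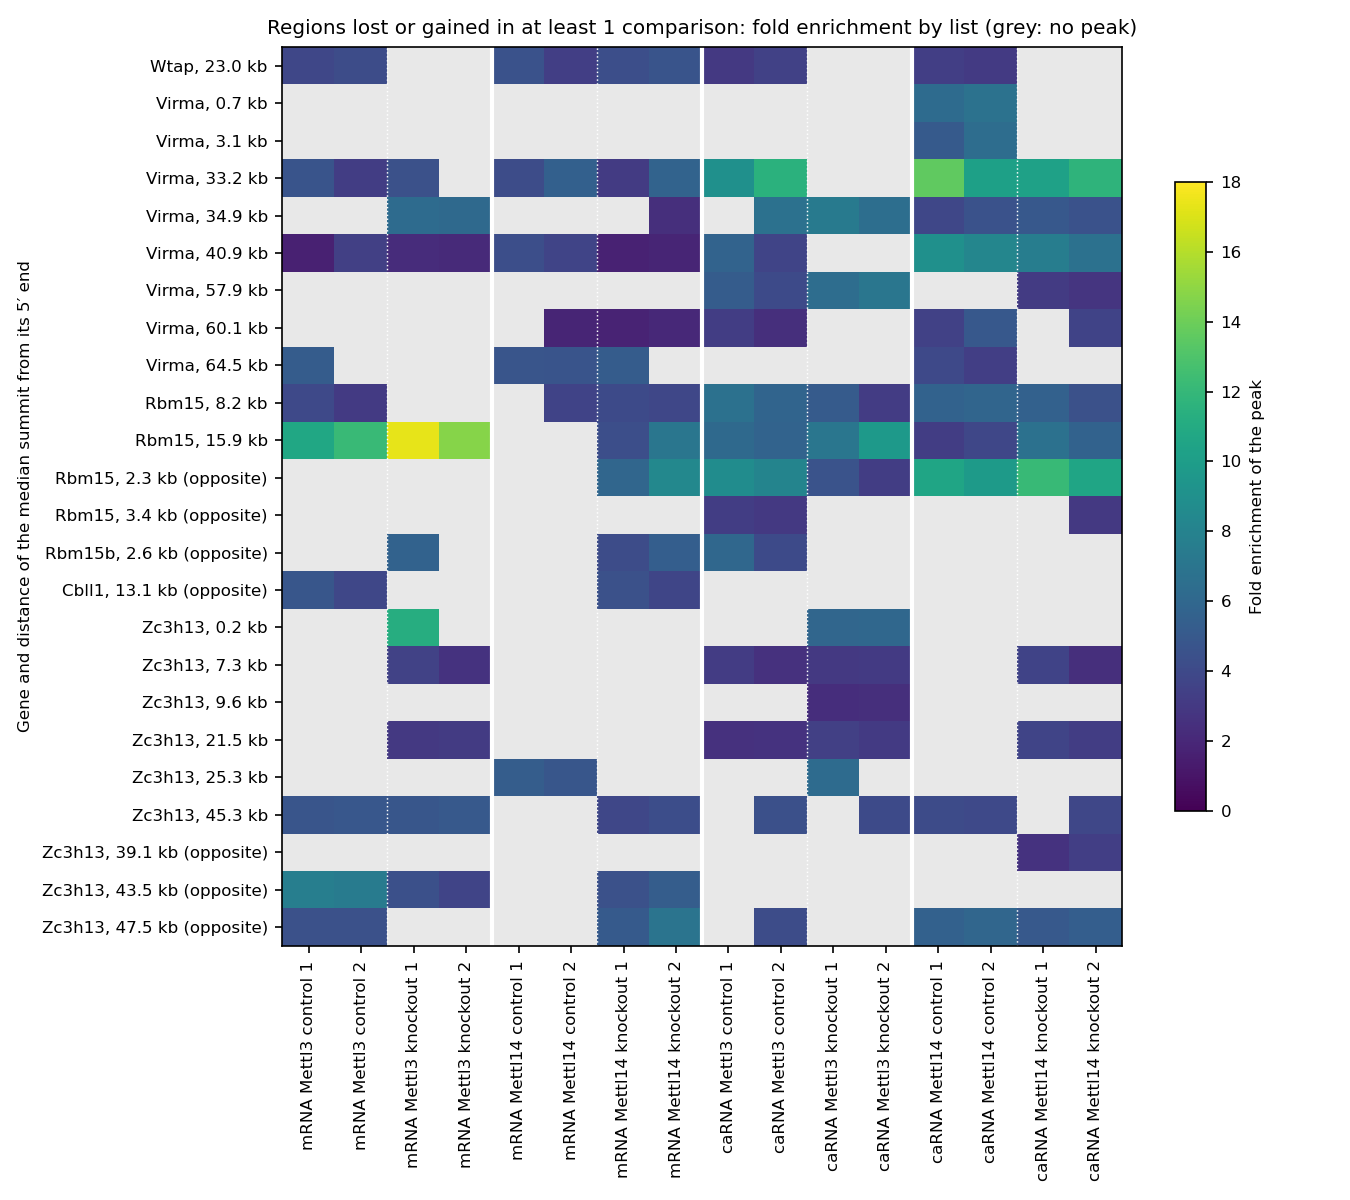
Fold enrichment (colour, from 0) in each of the 16 lists (columns) of the 24 merged regions that were lost or gained in at least 1 comparison (rows, named by gene and distance of the median summit from the gene's 5′ end; grey means no peak). The Wtap region at the top is present in 8 of 8 control lists and in 2 of 8 knockout lists, both from mRNA of the Mettl14 line.

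The best peak of each gene kept a similar place in its list in some genes and not in others. By fold, the best Zc3h13 peak lay between the 70th and the 99.3rd percentile of its list, the best Rbm15 peak between the 49.6th and the 98.8th and the best Wtap peak between the 29.7th and the 96.4th. In Virma it lay between the 79.6th and the 95th percentile in caRNA, and between the 35th and the 68.1st in mRNA, so the RNA types did not overlap. How many of all genes part in this way was not counted, so this is not shown to be particular to Virma. Percentiles of lists of different length do not measure a change in methylation.

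**Figure D5:**
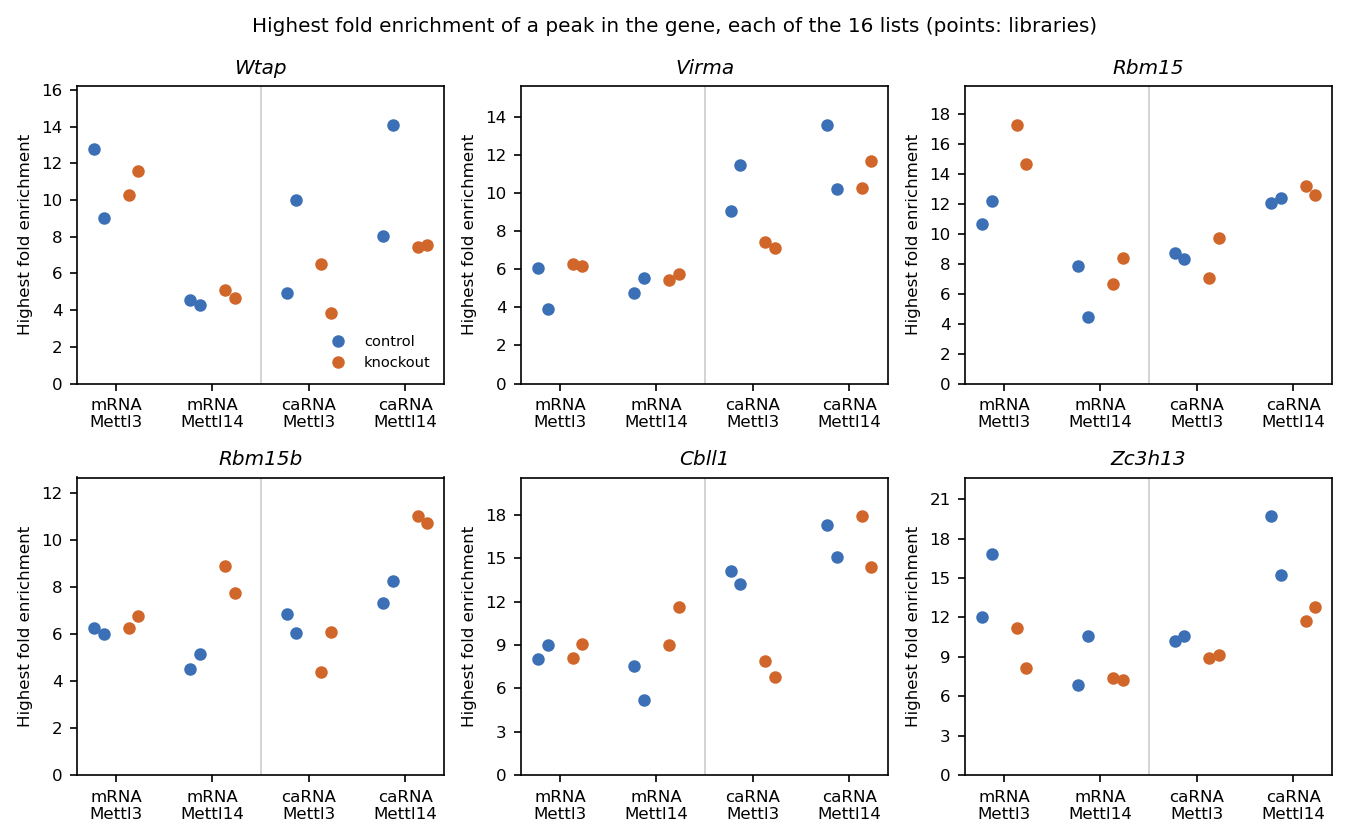
Highest fold enrichment of any peak in the gene (vertical axis, linear from 0), as given in each list, for the 6 genes; points are libraries, blue for control and orange for knockout. In Virma the 8 caRNA lists lie between 7.1 and 13.6 and the 8 mRNA lists between 3.93 and 6.26. How many of all genes part in this way was not counted.

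Of 22 other genes of the m6A pathway (writers, erasers and readers), 9 held a summit in all 16 lists, against 6 of 6 cofactors. Among protein-coding genes with a summit in at least 4 lists the share was 46.4%. No test was made of these shares. In mRNA Mettl3, Mettl16, a methyltransferase of U6 RNA, was lost (folds of 5.05 and 2.8 in the controls), as was Igf2bp1, an m6A reader (1.62 and 1.39), and Mettl5, a ribosomal RNA methyltransferase, was gained (5.47 and 6.14). In mRNA Mettl14 0 were lost or gained. The Mettl14 gene itself was gained in caRNA Mettl3 (5.53 and 5.33) and lost in caRNA Mettl14 (3.82 and 2.82). In the summit test, 21 of the 22 had enough lists; 10 of 21 were higher in caRNA and 0 lower, and 0 passed between genotypes.

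Over the 16 lists, the 2 genes whose summit number was most like that of each member, among 9972 protein-coding genes with a summit in at least 8 lists, were Endov (Pearson r = 0.84) and Rybp (0.818) for Wtap, Usp3 (0.886) and Fbxo31 (0.875) for Virma, and Chek2 (0.956) and Sclt1 (0.951) for Rbm15. They were Tbx20 (0.72) and Tomm40l (0.717) for Rbm15b, Heatr3 (0.835) and Zfp143 (0.788) for Cbll1, and Dock1 (0.934) and Diaph3 (0.927) for Zc3h13. All lists share their length and RNA type across genes, so these values describe likeness only, and the median gene had r = 0.46 with Rbm15 and 0.466 with Zc3h13.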

How the data were processed

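The members and the lists of pathway and marker genes were chosen with earlier results of these data known. The authors deposited 1 peak list for each immunoprecipitated library, with peaks given by strand and replicates not pooled. In these lists the fold enrichment is a ratio, the significance of a peak is a deposited −log10 p and −log10 q (lowest −log10 q about 2), and a summit offset is given. Per the submitters' processing notes, the tools included CASAVA, Trimmomatic 0.38, HISAT2 2.1.0 and SAMtools 1.9 and the build was mm10; the peak caller is not given in the sources used here. No read counts were used, so depth is unknown and no counting interval is given.

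Summits were placed in gene bodies of the RefSeq table (GRCm38.p6), and 5 of the 6 members had an entry in its promoter table. Named are the 6 members, regions found in all 16 lists, lost or gained in a comparison, or of highest mean fold, pathway genes lost or gained, and the 2 genes most like each member. Other regions were named after their values were seen. Peaks were merged by strand at an overlap of 1 base. Summits per gene were compared by exact two-sided permutation within strata (1296 arrangements) with Benjamini-Hochberg adjustment at 0.05 over all genes with a summit in at least 4 lists. The genotype test, before adjustment, was tried on simulated Poisson counts without effects of RNA type, line or list length. Those counts differ from the data, so they do not show how the adjusted calls perform here. Replicates with the same number did not deviate together in the peak lists (correlations from -0.00551 to 0.00905), and the main test did not pair them. Whether libraries of the same number were prepared together is not known. Python 3.11.15, numpy 2.4.6 and pandas 2.3.3 were used. Alternatives were a stricter q, lists cut to the 10000 strongest peaks, strand, overlap rules, the filter, a replicate block and leaving out replicates; scaling to list length, region presence and opposite-strand summits alone were added after seeing the data.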

Additional observations from a re-analysis of the deposited data

Results flagged for a closer look

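In mRNA, 2 opposite-strand regions went opposite ways in the 2 lines. The Cbll1 region that starts at base 31487418 of chromosome 12 held peaks in both Mettl3 controls (folds of 4.85 and 3.85) and neither Mettl3 knockout, and in both Mettl14 knockouts (4.49 and 3.76) and neither Mettl14 control. The Zc3h13 region that starts at base 75331718 of chromosome 14 did the same, where the Mettl3 controls had folds of 4.43 and 4.44 and the Mettl14 knockouts 5.13 and 6.96. In caRNA the Cbll1 region had no peak, and the Zc3h13 region had one in all 4 lists of the Mettl14 line and in 1 of the Mettl3 line. The difference between the lines was not tested.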

How the results depend on the processing

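Of the main counts under alternative settings, 135 stayed within 1.5 times and 28 moved. Many of the 135 were counts of 0 that stayed at 0, so this tally is not a measure of stability. With lists cut to the 10000 strongest peaks, 2 genes were lost in caRNA Mettl3, and regions lost or gained numbered 2 and 1 in mRNA Mettl3, 1 gained in mRNA Mettl14, and 0 and 2 in caRNA Mettl14. On the gene's strand alone, 2 were lost in mRNA Mettl3 and 2 gained in mRNA Mettl14. With summits within 100 nt counted as shared, 5 were gained in mRNA Mettl3, 5 lost in mRNA Mettl14 and 5 gained in caRNA Mettl3. The cause was not tested, and no share of all genes or regions lost or gained is given for these settings.

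With 1 library left out in turn, lost regions ranged from 5 to 6 in mRNA Mettl3, 1 to 3 in mRNA Mettl14, 6 to 11 in caRNA Mettl3 and 4 to 7 in caRNA Mettl14, and gained regions from 3 to 6, 7 to 12, 3 to 6 and 4 to 7 in the same order. Leaving out a library loosens the rule, since fewer lists must agree, which by itself keeps or raises such counts. They are therefore no check of stability, and no share of all regions is given for the looser rule. No member gene was lost or gained under these omissions.

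Members that passed between RNA types numbered 2, both higher in caRNA. With the 10000 strongest peaks 1 passed (Wtap, lower), on the gene's strand 1 (Zc3h13, higher), on the opposite strand 1 (Rbm15, higher) and per 10000 peaks 5, all lower. With -log10 q of at least 5, 3 passed, Virma being added. Of all genes tested, 11.3%, 40.5%, 21.3%, 45% and 40.8% passed in either direction, in the same order of settings. The difference reversed to -0.625 (gene's strand) and -0.322 (per 10000 peaks) in Rbm15, to -1.96 (per 10000 peaks) and -0.5 (opposite strand) in Zc3h13, to -1.25 (10000 strongest) and -0.597 (per 10000 peaks) in Wtap, and per 10000 peaks to -0.881 in Virma and -0.386 in Cbll1. With the replicate number as a replicate block, 2 members passed in that contrast, and 2891 genes in place of 5817. Without replicate 1 or 2 of every group, 16 arrangements allow no exact permutation p below 0.125, and 0 passed. Unknown depth and 2 libraries a group limit every call, and a missing peak is not shown to be a missing mark.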
